A study of Mus musculus with 6 samples.

Results

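Gfi1 and Gfi1b are the members of a small family of zinc finger repressors, and both were read here in blood stem cells of mice that carry 1 altered copy of Mecom. They are 2 of the 18465 genes with a row in the deposited table. They were chosen because earlier results on these same samples showed Gfi1 higher and Gfi1b lower in the altered mice, so their levels, fold changes and ratio are given as a description, with no test. The cells were SLAM-LSK cells (CD150+, CD48-, lineage-, Sca1+, cKit+), a sorted bone marrow fraction rich in haematopoietic stem cells, from C57BL/6 mice. One group is WT (3 libraries) and the other is MecomWT:R751W (3 libraries), heterozygous for the R751W allele of the transcription factor gene Mecom. All 6 samples share strain, tissue and sort, and their ages are not stated in the sources used here. The titles number the libraries as biological replicates but do not tie each one to its own animal, so the spread between them may be partly technical.

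GFI1 and GFI1B share a short SNAG domain at the N terminus, which recruits the histone demethylase LSD1 and its CoREST partners, and a block of C-terminal zinc fingers that bind DNA around an AATC core. GFI1 acts in stem cells, granulocyte precursors and lymphocytes, and GFI1B in stem cells, erythroid cells and megakaryocytes. Each is known to repress its own gene and that of its paralog. In marrow, loss of either one disturbs the quiescence of stem cells.

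Gfi1 lies on the minus strand of chromosome 5 (chr5:107716655-107725805 in RefSeq, GRCm38.p6, the assembly also called mm10), and Gfi1b on the minus strand of chromosome 2 (chr2:28609450-28621982). Their main GENCODE M21 transcripts have 6 and 7 exons and coding sequences of 1269 and 990 bases. The first 60 coding bases, which hold the SNAG domain, are shown because they are the part by which both proteins recruit LSD1. Capitals mark the 15 bases that differ, and 75.0% are identical.
Gfi1: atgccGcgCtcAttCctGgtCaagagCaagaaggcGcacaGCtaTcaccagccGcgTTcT
Gfi1b: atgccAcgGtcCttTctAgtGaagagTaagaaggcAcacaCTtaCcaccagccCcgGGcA

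Over the whole coding sequence, 984 bases could be aligned and 73.5% of them were identical. The most similar 120 bases lie near the 3′ end, in the zinc finger part, at coding bases 1066 to 1185 of Gfi1 and 787 to 906 of Gfi1b. They are shown because this is the stretch in which reads of the paralogs are hardest to tell apart. Here 9 bases differ, in capitals, and 92.5% are identical.
Gfi1: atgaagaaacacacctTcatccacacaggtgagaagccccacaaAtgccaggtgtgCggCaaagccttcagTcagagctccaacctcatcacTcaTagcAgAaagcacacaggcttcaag
Gfi1b: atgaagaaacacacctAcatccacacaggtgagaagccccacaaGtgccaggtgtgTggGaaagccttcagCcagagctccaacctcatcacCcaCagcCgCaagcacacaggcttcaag

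The longest run of bases shared without a mismatch by any pair of their transcripts was 27, and 0 of the 3153 words of 31 bases in Gfi1 transcripts occurred in Gfi1b. Exact matches longer than 27 bases therefore tell the pair apart. How the authors handled reads with a mismatch is not stated in the sources used here.

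The 250 bases upstream of each RefSeq start site are shown because the AATC core is the sequence that both proteins recognise. Capitals mark AATC on either strand (GATT is its reverse complement). Gfi1 has 2 start sites in the table, with windows at chr5:107725806-107726055 and chr5:107724344-107724593. Gfi1b has 1, with its window at chr2:28621983-28622232. All are on the minus strand of GRCm38.p6 and are written 5′ to 3′ in the direction of transcription.
Gfi1, start site 1: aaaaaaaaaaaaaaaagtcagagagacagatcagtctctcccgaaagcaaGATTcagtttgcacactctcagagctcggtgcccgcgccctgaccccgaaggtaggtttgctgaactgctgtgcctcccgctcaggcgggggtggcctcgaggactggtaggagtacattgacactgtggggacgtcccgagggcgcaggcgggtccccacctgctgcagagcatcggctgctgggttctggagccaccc
Gfi1, start site 2: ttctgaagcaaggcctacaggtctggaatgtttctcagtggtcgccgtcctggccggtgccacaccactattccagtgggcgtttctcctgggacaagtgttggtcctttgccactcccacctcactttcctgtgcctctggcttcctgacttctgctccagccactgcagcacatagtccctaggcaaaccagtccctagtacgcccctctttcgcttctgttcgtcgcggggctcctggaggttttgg
Gfi1b: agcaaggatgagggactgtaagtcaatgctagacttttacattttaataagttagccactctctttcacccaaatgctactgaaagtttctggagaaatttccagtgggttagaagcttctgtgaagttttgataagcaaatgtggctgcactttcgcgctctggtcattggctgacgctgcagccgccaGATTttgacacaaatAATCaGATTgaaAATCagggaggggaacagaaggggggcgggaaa

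The Gfi1b window held 4 matches to AATC, with first bases 60, 45, 40 and 33 bases upstream of the start. At least 4 matches were found in 4.97% of 14863 windows of the same length over genes in the table. At Gfi1, start site 1 had 1 match, 200 bases upstream, and start site 2 had 0. GENCODE M21 begins Gfi1 at chr5:107726036, so most of the window of start site 1 lies inside the GENCODE gene. For Gfi1b both annotations give the same start, so the windows of the paralogs are not fully alike. At least 1 match was found in 63.4% of the windows. The GATA factor core GATAA, searched on both strands, matched once in the Gfi1b window, 119 bases upstream and apart from the AATC matches, and 0 times in either Gfi1 window. Of all windows, 16.0% held it. These matches are letters in a window and no binding was measured.

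Gfi1 was read at 2.40, 3.06 and 3.56 TPM across WT replicates 1, 2 and 3, against 6.16, 6.14 and 5.32 TPM across MecomWT:R751W replicates 1, 2 and 3. TPM is a read number per gene length, scaled to 1000000 in each library, so levels can be compared between genes. All 3 MecomWT:R751W libraries lay above every WT library. The means were 3.01 ± 0.580 TPM in WT libraries against 5.87 ± 0.476 TPM in MecomWT:R751W libraries (SD, n = 3 each), a 1.95-fold higher level. The log2 fold change on the log2(TPM + 1) scale was 0.79 (standard error, SE, 0.18). Of 11394 protein-coding genes tested, 0.211% had a log2 fold change at least as high.

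Gfi1b was read at 14.1, 11.2 and 9.33 TPM across WT replicates 1, 2 and 3, against 9.13, 6.96 and 8.95 TPM across MecomWT:R751W replicates 1, 2 and 3. The groups did not overlap, but the lowest WT library and the highest MecomWT:R751W library were close, at 9.33 and 9.13 TPM. The means were 11.5 ± 2.42 TPM in WT libraries against 8.35 ± 1.21 TPM in MecomWT:R751W libraries (SD, n = 3 each), which is 1.38-fold lower in MecomWT:R751W. The log2 fold change was -0.41 (SE 0.18), and it was -0.27 without WT replicate 1, the library with the most Gfi1b. Of the protein-coding genes tested, 3.03% had a log2 fold change at least as low. Over all 16655 genes tested, groups that do not overlap were found for 4.5% on the higher side and 4.7% on the lower side, 9.19% in all, and over the 11394 protein-coding genes for 4.21% and 4.84%. These shares are the background for both paralogs, and nothing is read from them because the pair was chosen on this contrast.

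**Figure D1:**
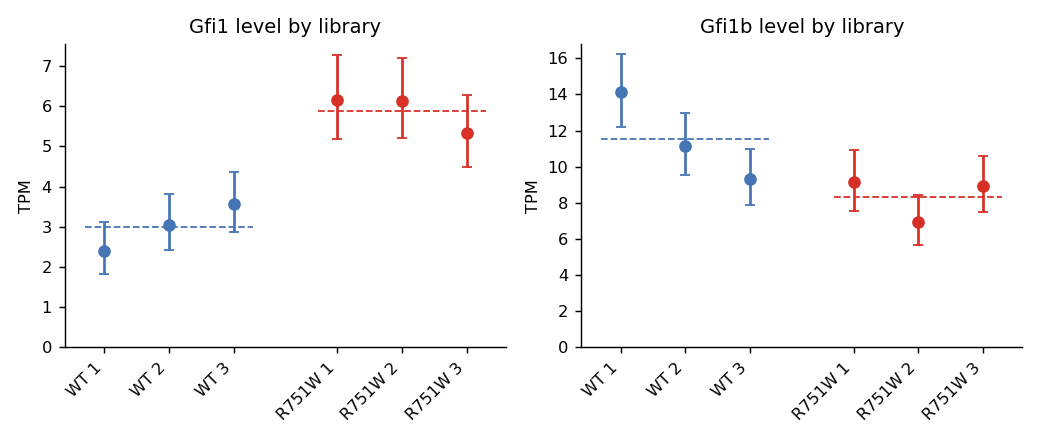
Level of Gfi1 (left) and Gfi1b (right) in TPM in each library, WT in blue and MecomWT:R751W (labelled R751W) in red. Bars are exact 95% Poisson intervals of the implied reads, and dashed lines are group means. Gfi1 is above every WT library in all 3 MecomWT:R751W libraries, while for Gfi1b WT replicate 3 and MecomWT:R751W replicate 1 almost touch.

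The TPM values imply whole reads (see the processing section), which gives the counting error behind each level. Gfi1 rested on 56, 78 and 95 reads in the WT libraries and on 138, 152 and 139 in the MecomWT:R751W libraries. The 95% Poisson interval of the highest WT value was 2.88 to 4.35 TPM and that of the lowest MecomWT:R751W value 4.48 to 6.29 TPM, so these did not overlap. Gfi1b rested on 193, 167 and 146 reads in WT and on 120, 101 and 137 in MecomWT:R751W. The interval of WT replicate 3 was 7.88 to 10.97 TPM and that of MecomWT:R751W replicate 1 was 7.57 to 10.9 TPM, which overlap over most of their length. WT replicate 1, at 12.2 to 16.3 TPM, stood apart from WT replicate 3 by more than counting error. These intervals cover counting error only, and perhaps not all of it, since reads without molecular identifiers need not be independent molecules. They leave out the spread between samples and are no test of a pair chosen on these values.

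Among protein-coding genes with a row, both genes sat in the lower or middle range of expression. Genes without a row are not counted in these shares. Gfi1 was above 22.4% of the 12552 by its WT mean and above 36.6% by its MecomWT:R751W mean. Gfi1b was above 56.3% and 46.2%. By comparison, Gata2, a GATA factor of stem cells, was at 122 ± 9.64 TPM in WT. In bulk samples such as these, fewer cells that express a gene and less RNA of it per cell cannot be told apart.

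The summed level of the paralogs was nearly the same in the groups. It was 16.5, 14.2 and 12.9 TPM across WT replicates 1, 2 and 3, against 15.3, 13.1 and 14.3 TPM across MecomWT:R751W replicates 1, 2 and 3. The groups overlapped, with means of 14.5 ± 1.84 and 14.2 ± 1.10 TPM (SD, n = 3 each). The difference was -0.323 TPM (SE 1.24), so a small change in either direction would not be seen. What differed was the make-up of the sum. Gfi1 made up 14.5%, 21.5% and 27.6% of it in the WT libraries and 40.3%, 46.9% and 37.3% in the MecomWT:R751W libraries. The pair was chosen for opposed changes, which fix a differing share and tend to cancel in a sum. Nothing is therefore read from either.

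The ratio of Gfi1 to Gfi1b was 0.170, 0.274 and 0.382 across WT replicates 1, 2 and 3, against 0.674, 0.883 and 0.595 across MecomWT:R751W replicates 1, 2 and 3. Gfi1b had the higher TPM in all 6 libraries, and the ratio came nearest to 1 in MecomWT:R751W replicate 2. This order rests on scaling by length in the MecomWT:R751W libraries, where Gfi1 had more reads (138, 152 and 139) than Gfi1b (120, 101 and 137). The group means were 0.275 ± 0.106 and 0.717 ± 0.149 (SD, n = 3 each). On the log2 scale the groups differed by 1.44 (SE 0.38). Exact 95% binomial intervals of the ratio, from the reads of both genes, were 0.292 to 0.497 in WT replicate 3 and 0.467 to 0.759 in MecomWT:R751W replicate 3, the closest libraries of the opposite groups. These overlap slightly, and the interval of MecomWT:R751W replicate 2, 0.682 to 1.15, includes 1. The log2 difference was 1.13 to 1.71 with any 1 library left out, and could not change sign since the groups did not overlap.

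**Figure D2:**
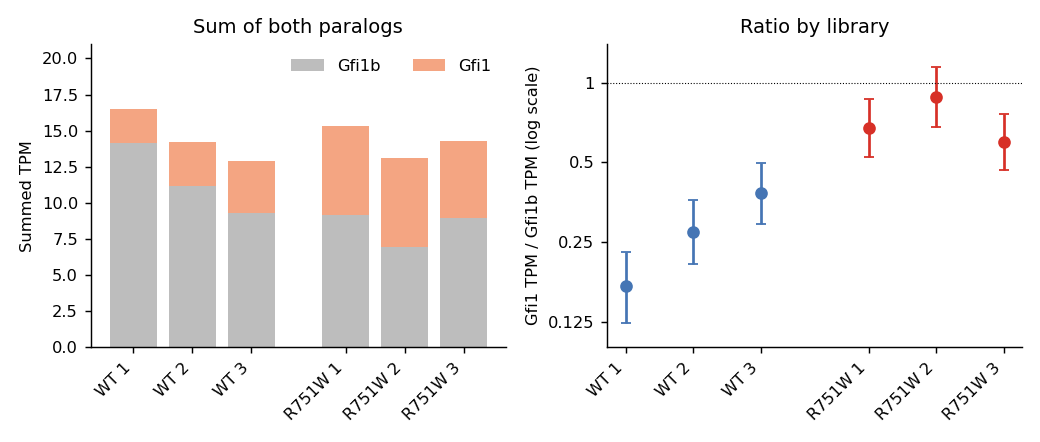
Left, stacked bars of Gfi1b (grey) and Gfi1 (orange) in TPM for each library. Right, the ratio of Gfi1 TPM to Gfi1b TPM on a log axis, WT in blue and MecomWT:R751W in red, with exact 95% binomial intervals and a dotted line at 1. The summed bars overlap between groups at 12.9 to 16.5 and 13.1 to 15.3 TPM, while the ratio is 0.170 to 0.382 in WT and 0.595 to 0.883 in MecomWT:R751W.

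Libraries of 1 group differed among themselves too. Among WT libraries, the one with the least Gfi1 had the most Gfi1b and the one with the most Gfi1 had the least Gfi1b, so the ratio spanned 0.170 to 0.382. Among MecomWT:R751W libraries this order did not hold: replicates 1 and 2 had about the same Gfi1 (6.16 and 6.14 TPM) at 9.13 and 6.96 TPM of Gfi1b. Protein-coding genes took 25.9% to 30.1% of TPM in WT and 26.0% to 29.7% in MecomWT:R751W. Rescaled to 1000000 over protein-coding genes, Gfi1 was 7.98 to 12.3 in WT and 18.4 to 23.6 in MecomWT:R751W, and Gfi1b 32.3 to 46.9 and 26.7 to 30.97, again without overlap.

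The genes around the pair were read from limma on log2(TPM + 1) over all genes. This fit called 0 of 16655 genes at an adjusted p of 0.05 (0.0%, Benjamini-Hochberg), with 995 (5.97%) at an unadjusted p under 0.05. With limma over protein-coding rows alone, 40 genes were called higher (0.351%) and 92 lower (0.807%) in MecomWT:R751W, 1.16% of 11394 in all. In that fit the variance of each gene was drawn further toward that of genes of like level. The SE went from 0.30 to 0.16 for Egr1 and from 0.146 to 0.160 for Hdac1. For Flt3 it was 0.157 and 0.153, while the unadjusted p went from 4.27e-05 to 8.45e-09 (limma). Its p-values thus rest little on the spread of a gene between its own replicates. With limma-voom on the implied reads, 24 were called higher (0.144%) and 26 lower (0.156%), 0.3% of 16655. Over all genes the median was -0.0037 on the log2 scale. List members below are read against these values, and all lists were chosen with earlier results known.

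The corepressors through which both proteins act were read first. Over the genes they tested, the 3 fits above called 0.0%, 1.16% and 0.3%, so 0 calls in a short list say little. Of 16 listed genes, all were tested, 0 were called in any of these 3 fits, and 6 lay above 0 and 10 below (median -0.02, range -0.29 to 0.10). Kdm1a, which encodes LSD1, was at 41.5 ± 2.51 TPM in WT libraries against 42.4 ± 4.62 TPM in MecomWT:R751W libraries (SD, n = 3). Rcor1, the main CoREST scaffold, was at 26.1 ± 3.08 and 24.5 ± 0.827 TPM, and the histone deacetylase Hdac2 at 68.3 ± 9.40 and 72.7 ± 3.94 TPM. The groups did not overlap for 2 of the 16, both lower in MecomWT:R751W, where 4.7% of all genes tested did not overlap on that side. The deacetylase Hdac1 was at 12.4, 11.8 and 11.4 TPM in WT libraries against 10.6, 9.26 and 9.44 TPM in MecomWT:R751W libraries. Rcor2, another CoREST protein, was at 9.47, 9.61 and 8.92 TPM in WT libraries against 7.89, 7.58 and 6.90 TPM in MecomWT:R751W libraries. Their log2 fold changes were -0.25 (SE 0.15) and -0.29 (SE 0.15), and neither passed (adjusted p = 0.945 and 0.919, limma).

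Of 13 other reported protein partners, 10 were tested, 0 were called in these 3 fits, and 3 lay above 0 and 7 below (median -0.15). Arih2, a ubiquitin ligase known as TRIAD1 that binds GFI1, was at 29.2, 19.1 and 18.6 TPM in WT libraries against 15.5, 14.6 and 15.7 TPM in MecomWT:R751W libraries. The groups did not overlap, but the WT spread came from replicate 1. It stood at -0.49 (SE 0.17), which missed the threshold (adjusted p = 0.665, limma), and at -0.29 without WT replicate 1. Limd1, a LIM domain protein of the Ajuba family, stood at -0.25 (SE 0.14) without overlap. Arih2 and Limd1 were the 2 of 10 tested without overlap, both lower, where 4.7% of all genes tested did not overlap on that side. Zbtb17, which encodes MIZ1, the factor through which GFI1 represses some promoters, was at 12.8 ± 1.46 and 11.5 ± 2.59 TPM. The other 9 genes listed for a SNAG domain, among them Snai1, Snai2 and Insm1, had no row in the table used.

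Factors that bind or control these loci were also read. Of 20 listed genes, all tested, 0 were called in these 3 fits, which called 0.0%, 1.16% and 0.3% of all genes they tested. Of the 20, 10 lay above 0 and 10 below (median 0.01). The groups overlapped in every one, where 9.19% of all genes tested did not overlap. Mecom itself was at 42.9, 34.9 and 36.9 TPM in WT libraries against 50.9, 39.9 and 44.0 TPM in MecomWT:R751W libraries, a log2 fold change of 0.23 (SE 0.14). Since the normal and altered copies are counted together, this level is no check of the genotype labels. Gata2 stood at -0.01 (SE 0.12) and Runx1, a core-binding factor that stem cells need, -0.03 (SE 0.14). Spi1, which encodes PU.1 and is repressed by GFI1, was at 28.8, 21.9 and 23.4 TPM in WT libraries against 19.5, 16.3 and 25.3 TPM in MecomWT:R751W libraries, with overlap. Ets1 and Elf1, which encode ETS factors, stood at 0.26 (SE 0.18) and 0.19 (SE 0.14).

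Genes reported as repressed by GFI1 were mostly on the negative side. Of 20 listed, 16 were tested, 14 lay below 0 and 2 above, and the median was -0.16. Over all genes 8495 of 16655 lay below 0. None of the 16 was called over all genes, the groups overlapped in all 16, and 2 had an unadjusted p under 0.05. Egr1, an early response gene that GFI1 represses in myeloid cells, was at 273, 229 and 130 TPM in WT libraries against 151, 92.3 and 61.2 TPM in MecomWT:R751W libraries. WT replicate 3 lay below MecomWT:R751W replicate 1. Its log2 fold change of -1.08 (SE 0.30 over all genes and 0.16 over protein-coding rows) had an adjusted p of 0.431 over all genes and 1.86e-06 over protein-coding rows (limma), where it fell, and 0.0909 by limma-voom. With 1 library left out it was between -1.41 and -0.76. Of these fits it passed over all genes only without MecomWT:R751W replicate 1 (-1.41, adjusted p = 0.0295, limma), the library that overlapped WT replicate 3. Irf8, a monocyte factor, stood at -0.35 (SE 0.21), while the stem cell factors Meis1 and Hoxa9 were at 150 ± 12.8 and 149 ± 14.3 TPM and at 31.8 ± 4.43 and 28.9 ± 1.18 TPM.

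Of 10 genes reported as repressed by GFI1B, all tested, 0 were called in these 3 fits, and 3 lay above 0 and 7 below (median -0.03). Bcl2l1, which encodes the survival protein BCL-XL, was at 6.56, 6.34 and 7.40 TPM in WT libraries against 7.86, 7.61 and 8.06 TPM in MecomWT:R751W libraries. The groups did not overlap, and the log2 fold change was 0.19 (SE 0.16). This held for 1 of the 10, where 4.5% of all genes tested did not overlap on the higher side. Myc and Rgs18, a regulator of G protein signalling in platelets, had log2 fold changes of -0.05 and 0.04. The list shares Socs3, Cdkn1a, Meis1 and Spi1 with that of GFI1. Socs3, a cytokine signalling inhibitor, was at 9.02, 4.25 and 3.84 TPM in WT libraries against 4.69, 2.85 and 1.78 TPM in MecomWT:R751W libraries. Cdkn1a, which encodes the cell cycle inhibitor p21, was at 7.30, 2.45 and 2.66 TPM and at 3.37, 2.10 and 1.14 TPM. In both, WT replicate 1 was highest and the groups overlapped. Without that library the log2 fold changes went from -0.69 to -0.36 for Socs3 and from -0.62 to -0.21 for Cdkn1a, and without MecomWT:R751W replicate 3 to -0.44 and -0.36.

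**Figure D3:**
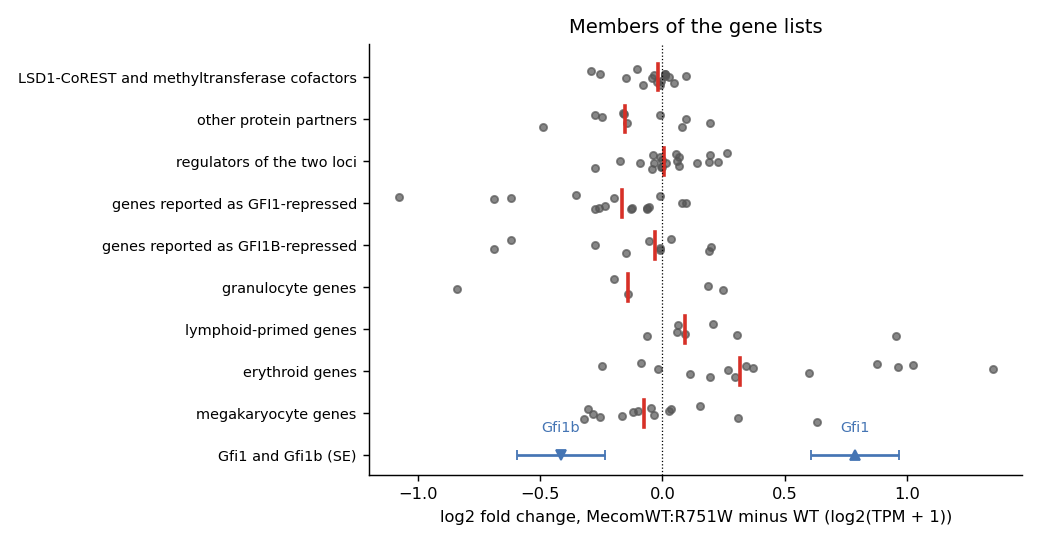
Log2 fold change (MecomWT:R751W minus WT, on log2(TPM + 1)) of each tested member of the gene lists, with the list median in red and the median of all genes as a dotted line. The bottom row gives Gfi1 (0.79) and Gfi1b (-0.41) with their SE. Medians lie between -0.16 and 0.09 except for erythroid genes, at 0.32. Of these, Car1, Rhd, Ermap and Sptb passed the filter only through MecomWT:R751W.

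Lineages in which the paralogs act were read next. On the GFI1 side, 5 of 14 granulocyte genes had a row, 0 were called in these 3 fits, and 2 lay above 0 and 3 below. Prtn3, a granule protease, was at 26.3 ± 1.92 and 30.1 ± 3.79 TPM, and Csf3r, the receptor of G-CSF, at 16.2 ± 2.33 and 19.3 ± 2.44 TPM. Ngp, a granule protein of neutrophils, was at 12.2, 3.35 and 1.00 TPM in WT libraries against 2.03, 1.84 and 1.33 TPM in MecomWT:R751W libraries, so WT replicate 1 alone was high. It was the only one of 7 neutrophil markers with a row.

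Lymphoid-primed genes lay mostly above 0, as 6 of 7 tested did (median 0.09), and 0 were called over all genes. Flt3, the cytokine receptor that marks lymphoid-primed progenitors, was at 11.7, 9.30 and 13.0 TPM in WT libraries against 24.0, 20.4 and 24.1 TPM in MecomWT:R751W libraries, with no overlap. It was 1 of the 7 tested, where 4.5% of all genes tested did not overlap on the higher side. Its log2 fold change was 0.96 (SE 0.16), with an adjusted p of 0.142 over all genes and 9.63e-06 over protein-coding rows (limma). It was also called by limma-voom (adjusted p = 0.000125). The GTPase gene Gimap6 stood at 0.21 (SE 0.13). Dntt, which encodes the terminal transferase of lymphoid progenitors, was under the filter on low values. It was at 0.188, 0.400 and 0.164 TPM in WT libraries against 2.28, 0.943 and 1.73 TPM in MecomWT:R751W libraries, and is named after its values were seen.

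On the GFI1B side, 11 of 14 tested erythroid genes lay above 0 and 3 below, with a median of 0.32. None was called over all genes, and 4 rose over protein-coding rows, Klf1, Car1, Rhd and Ermap. Klf1, the erythroid master factor, was at 2.53, 1.15 and 1.74 TPM in WT libraries against 4.88, 4.85 and 2.74 TPM in MecomWT:R751W libraries (log2 fold change 0.88, SE 0.24, adjusted p = 0.431 over all genes and 0.00529 over protein-coding rows, limma). Groups did not overlap for 5 of the 14 on the higher side, where 4.5% of all genes tested did not. On the lower side, with 4.7% of all genes, this held for Zfpm1 alone, which encodes the GATA cofactor FOG1, at 132, 122 and 137 TPM in WT libraries against 117, 97.4 and 116 TPM in MecomWT:R751W libraries. Rhd, a blood group gene, was at 0.690 ± 0.0943 and 2.34 ± 0.676 TPM and Ermap at 0.773 ± 0.453 and 2.58 ± 0.693 TPM. Car1, a carbonic anhydrase, was at 1.71, 8.93 and 2.69 TPM in MecomWT:R751W, and its log2 fold change of 1.35 became 0.80 without MecomWT:R751W replicate 2. Car1, Rhd, Ermap and Sptb had WT means of 0.829, 0.690, 0.773 and 0.679 TPM. They passed the filter at a mean of 1 TPM only through their MecomWT:R751W levels. This lifted the calls, the count without overlap and the list median, so nothing is read from these. Among erythroid genes whose mean reached 5 TPM the median was 0.09. Sptb, which encodes a spectrin of the red cell skeleton, was called higher by limma-voom alone of these 3 fits.

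Megakaryocyte genes were spread around 0, with 5 of 14 tested above and 9 below (median -0.07), and 0 were called in these 3 fits. Selp, which encodes P-selectin, stood at 0.63 (SE 0.23), and at 0.36 without WT replicate 3. Gp9, a subunit of the platelet von Willebrand receptor, stood at -0.32 (SE 0.20).

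Some markers of other cell types also differed between the groups, and others did not. Of 10 T and NK cell markers, 5 had a row (Nkg7, Cd4, Thy1, Lck and Klrb1c), and their summed level was 9.05 to 10.1 TPM in WT libraries against 19.2 to 21.6 TPM in MecomWT:R751W libraries. Nkg7, a granule protein of cytotoxic cells, was the member with the highest level in each library, at 4.76, 3.89 and 4.30 TPM in WT libraries against 12.1, 12.0 and 9.51 TPM in MecomWT:R751W libraries. The defining markers Cd3e, Cd3d, Cd3g, Cd8a and Ncr1 had no row. Of 7 genes that the sort selects against, 2 had a row, and they lay on opposite sides. Cd48 was at 2.18, 1.85 and 1.02 TPM in WT libraries against 3.24, 2.27 and 4.10 TPM in MecomWT:R751W libraries, without overlap. On the higher side 4.5% of all genes tested did not overlap. Itgam, the myeloid integrin CD11b, was at 8.11, 2.94 and 2.64 TPM in WT libraries and at 3.35, 2.33 and 4.30 TPM in MecomWT:R751W libraries, with overlap, and was highest in WT replicate 1, as Ngp was. By limma, 3 of the 4 T and NK cell markers tested rose over protein-coding rows and 0 over all genes, where Nkg7 had an adjusted p of 0.0856 and no gene a smaller one. The part of these markers in the levels of the pair, Flt3 and the lymphoid genes was not tested. Other marker lists had summed levels whose ranges overlapped between groups, with 1 of 7 B and plasma cell markers (5.30 to 8.21 and 6.38 to 8.11 TPM), 1 of 9 mast cell and basophil markers (0.9002 to 2.12 and 0.932 to 2.17 TPM) and 5 of 9 macrophage and dendritic cell markers (16.7 to 19.2 and 15.0 to 20.0 TPM) in the table. The summed level of 5 of 8 endothelial and stromal markers was 34.6 to 39.7 and 36.9 to 47.8 TPM. Of its 3 tested members, Pecam1 and Col1a2 lay below 0, at -0.13 (SE 0.17) and -0.07 (SE 0.22), and Emcn above. Emcn, also a stem cell surface gene, was at 13.7, 13.6 and 13.7 TPM in WT libraries against 19.4, 19.3 and 25.1 TPM in MecomWT:R751W libraries, and rose over protein-coding rows (adjusted p = 0.0189, limma). The genes of the gate, Ly6a, Kit and Slamf1, were present in all 6 libraries at a summed 184 to 221 TPM in WT libraries against 158 to 195 TPM in MecomWT:R751W libraries. Kit made up most of that sum, and the members did not lie on 1 side. Slamf1, which encodes CD150, was at 10.1, 9.50 and 12.8 TPM in WT libraries and at 16.5, 12.2 and 14.7 TPM in MecomWT:R751W libraries (log2 fold change 0.39, SE 0.17), while Kit stood at -0.21 (SE 0.13) and Ly6a at -0.24 (SE 0.16). The groups overlapped for all 3, and none passed over all genes or over protein-coding rows (limma).

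Genes that neighbour the paralogs were read by position, which was not used to choose the pair, though the fold changes of the pair were. Of 12 protein-coding genes of the table within 500 kb of Gfi1, all tested, 0 were called in these 3 fits, 5 lay above 0 and 7 below, and the range was -0.20 to 0.30. Evi5, the nearest at 19.0 kb, was at 2.15, 1.51 and 2.70 TPM in WT libraries against 2.27, 2.15 and 2.61 TPM in MecomWT:R751W libraries. Brdt, a testis bromodomain gene at 329.6 kb, had the highest log2 fold change, 0.30 (SE 0.22). For Mtf2, a Polycomb protein gene at 339.9 kb, the log2 fold change was 0.14 (SE 0.12). Its groups did not overlap, at 36.8 to 41.9 TPM in WT libraries against 42.3 to 46.4 TPM in MecomWT:R751W libraries. This held for 1 of the 12, where 4.5% of all genes tested did not overlap on the higher side. Tgfbr3, a reported target of GFI1B that lies 427 kb from Gfi1, stood at -0.15 (SE 0.14).

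Of 9 such genes near Gfi1b, 8 were tested, 0 were called in these 3 fits, and 4 lay above 0 and 4 below, between -0.06 and 0.20. The nearest were Tsc1, which encodes hamartin, at 19.0 kb (log2 fold change -0.04, SE 0.15) and Gtf3c5, a subunit of the RNA polymerase III factor TFIIIC, at 26.2 kb (-0.06, SE 0.15). The groups overlapped for all 8. The log2 fold changes of both paralogs lay outside the range of their tested neighbours. As the pair was chosen on those fold changes, this was nearly fixed in advance and nothing is read from it.

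**Figure D4:**
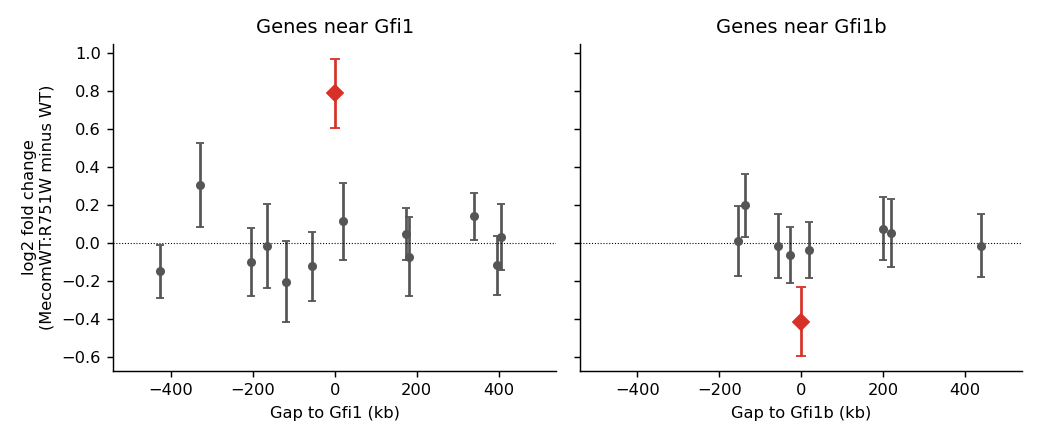
Log2 fold change with SE (MecomWT:R751W minus WT) of protein-coding genes by the gap to Gfi1 (left) and Gfi1b (right), in kb, negative toward lower coordinates. The paralogs are red diamonds at 0. Neighbours of Gfi1 lie between -0.20 and 0.30 and those of Gfi1b between -0.06 and 0.20.

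The genes whose levels followed Gfi1 most closely were found by Pearson r of log2(TPM + 1) over the 6 libraries, among protein-coding genes whose mean reached 5 TPM. They were Rad54b, a recombination helicase (r = 0.992), Pask, a PAS domain kinase (0.990), Tpgs1, a tubulin polyglutamylase subunit (0.973), Mns1, a protein of motile cilia and flagella (0.966), Kif2c, a mitotic kinesin (0.966), and Psmc3ip, a partner of meiotic recombinases (0.962). Rad54b was at 4.58, 5.39 and 5.83 TPM in WT libraries against 7.29, 7.37 and 7.07 TPM in MecomWT:R751W libraries, without overlap. An r over 0.9 was found for 37 of 8340 genes. For Gfi1b it was found for 167 of 8339 genes. The 6 genes closest to Gfi1b were Insig1, a sterol sensor partner (r = 0.991), Bcat2, a branched-chain aminotransferase (0.988), Midn (0.985), Manf, a secreted protein of the endoplasmic reticulum (0.985), Gng10, a G protein subunit (0.985), and Rnf138, a ubiquitin ligase (0.983). Insig1 was at 16.8, 12.8 and 9.41 TPM in WT libraries against 9.48, 6.97 and 8.72 TPM in MecomWT:R751W libraries, with overlap between WT replicate 3 and MecomWT:R751W replicate 1. These likenesses are descriptions over 6 libraries that share depth and the genotype split, and they carry no p.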

How the data were processed

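Bulk RNA-seq of 3 WT and 3 MecomWT:R751W libraries was used as 1 table of TPM values that the authors deposited, and each library adds up to 1000000. The build was mm10, per the submitters' processing notes, and DESeq2 was among the tools, with no role stated. Aligner, counter, strand setting, annotation and library kit are not stated there. Each of the 18465 symbols was found in RefSeq (GRCm38.p6), which gave gene types and coordinates.

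Reads were inferred from the TPM values. Within a gene they stand in whole-number ratios once 1 factor per library is removed, for 100.0% of genes within 0.001 reads. Library totals were 10427533 to 12378149 reads. Implied lengths were 3107 bases for Gfi1 and 1822 for Gfi1b, the latter equal to its GENCODE exon union. They set the intervals (exact Poisson, or exact binomial, 95%) and 1 alternative.

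The fit was limma 3.58.1 (R 4.3.3) with trend set, for genotype on log2(TPM + 1), for genes whose mean reached 1 TPM, two-sided, with Benjamini-Hochberg adjustment at 0.05. It was tested on simulated data. Python 3.11.15, numpy 2.4.6, pandas 2.3.3, scipy 1.17.1 and matplotlib 3.10.9 did the rest. The members, lists and alternatives were chosen with earlier results of these data known. Named genes were the pair, 9 partners and regulators, up to 4 members of smallest unadjusted p per list, and the 6 genes of highest r per paralog, predicted genes (Gm and Rik names) left out. Meis1, Hoxa9, Myc, Rgs18, Zfpm1, Dntt, Evi5, Tsc1, Sptb and Tgfbr3 fall outside this rule where so named and were chosen after their values were seen. Values of 2 list members are not reported here.

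Alternatives changed the pseudocount (0.1 or 5), the filter (5 TPM or none), the scaling, the rows, the replicate block and the count model, and left out each library. Replicate numbers are shared between groups, but nothing states that they pair samples.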

Additional observations from a re-analysis of the deposited data

How the results depend on the processing

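The log2 fold change of Gfi1 (0.79) kept its direction in every alternative run. Gfi1 was chosen on this contrast and its groups did not overlap. Leaving out a library or changing the pseudocount therefore could not reverse it, and only its size is described here. The log2 fold change was 0.96 with a pseudocount of 0.1, 0.44 with 5 and 0.97 with limma-voom on the implied reads. With 1 library left out it was 0.67 to 0.89. Gfi1 has a mean under 5 TPM, so the filter at 5 TPM gave it no value. With 1 library left out, Gfi1b was between -0.55 and -0.27 and the log2 ratio difference between 1.13 and 1.71. With a pseudocount of 1 on both genes that difference was 1.20.

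Counts of calls over all genes (0 higher, 0 lower by limma) moved more. They were 1 and 1 for genes whose mean reached 5 TPM, 40 and 92 over protein-coding rows, 24 and 26 with limma-voom and, in a setting added after the data were seen, 8 and 9 with TPM rescaled over protein-coding rows. With 1 library left out they ranged from 0 to 6 higher and from 0 to 9 lower. Leaving out WT replicate 3 gave 6 and 2, MecomWT:R751W replicate 1 gave 4 and 9, and WT replicate 2 gave 1 and 1. Among members of the lists other than cell type markers the count went from 0 to 6 over protein-coding rows (Car1, Egr1, Ermap, Flt3, Klf1 and Rhd), 2 with limma-voom (Flt3 and Sptb), 1 after rescaling (Flt3) and 0 to 2 with 1 library left out, where Car1 and Egr1 passed without MecomWT:R751W replicate 1. Over protein-coding rows the log2 fold changes were the same as over all genes, and only the SE and p-values differed. What set the number of calls was not tested. The number of genes tested was 11394 over protein-coding rows and 11434 with the filter at 5 TPM, which gave far fewer calls. Neighbours of the pair gave 0 calls in every alternative.

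With a replicate block, limma called 0 genes higher and 0 lower. The log2 ratio difference was 1.44, which a balanced block leaves unchanged by arithmetic. Same-numbered samples had correlations of deviations of 0.14, 0.09 and 0.08, and every sample correlated best with its own number, a hint from the data and not from the design. Depth limits the pair, since Gfi1 rested on 56 to 152 reads in a library.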
